A study of Mus musculus with 6 samples.

Results

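RNA-binding proteins set which exons of a neuronal transcript are kept, how long it lasts and where it is translated. The 10 genes described here encode such proteins: Elavl1, Elavl2, Elavl3, Elavl4, Rbpms, Rbfox2, Celf4, Nova1, Msi1 and Msi2. They were taken as a named list of 10 from the 27998 genes of the matrix, and their UMI (unique molecular identifier) counts were summed per library within each cell type. All 10 had counts in every library. The libraries came from mouse retina at embryonic day 14, profiled by droplet single-cell RNA sequencing in 3 genotypes with 2 libraries each. The genotypes were Bax null (titles name no Atoh7 mutation), Bax het Atoh7 null, and Bax null Atoh7 null (double mutant below). Atoh7 encodes a bHLH transcription factor that retinal progenitors need to make ganglion cells in normal number, and the Bax protein carries out programmed cell death. No group had both genes intact, since every library carried at least 1 mutant Bax allele. The labels give the source as retinal cells and do not say whether the 2 libraries of a genotype came from separate embryos or pools. The p-values below therefore measure only the spread between these libraries.

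As background, the Elavl (Hu) proteins bind AU-rich and U-rich stretches and stabilise mRNAs. Elavl1 is made in most cells, whereas Elavl2, Elavl3 and Elavl4 mark neurons. In the retina, antibodies against these neuronal members label ganglion and amacrine cells. Rbpms binds tandem CAC motifs, and in the mature retina it is a widely used marker of ganglion cells. Rbfox2, Nova1 and Celf4 take part in neuronal splicing or mRNA stability, and Rbfox proteins bind UGCAUG. Msi1 and Msi2 (Musashi) are translational regulators of neural progenitors, and both are also made in photoreceptors.

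Elavl3 and Elavl4 had the largest gap between progenitor and ganglion cells among the 10 but differed in neurogenic cells, so the 250 bases upstream of 1 annotated start of each are shown. Both sequences are from the RefSeq promoter table (GRCm38.p6), read on the minus strand of the gene, from chr9:22052024-22052273 and chr4:110351912-110352161. Capitals mark E-boxes (CANNTG), the class of sequence that bHLH factors bind. The motif is its own reverse complement in form, so 1 scan covers both strands.
Elavl3: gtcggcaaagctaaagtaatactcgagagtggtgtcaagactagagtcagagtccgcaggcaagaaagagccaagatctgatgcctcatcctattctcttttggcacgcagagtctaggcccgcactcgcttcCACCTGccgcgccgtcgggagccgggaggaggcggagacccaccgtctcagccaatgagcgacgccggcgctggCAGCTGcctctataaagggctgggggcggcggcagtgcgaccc
Elavl4: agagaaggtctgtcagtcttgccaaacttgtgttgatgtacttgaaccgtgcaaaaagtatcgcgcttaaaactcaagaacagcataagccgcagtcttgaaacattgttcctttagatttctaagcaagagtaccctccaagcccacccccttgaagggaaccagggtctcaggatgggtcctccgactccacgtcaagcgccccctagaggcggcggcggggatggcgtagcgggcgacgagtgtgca
The Elavl3 window held 2 E-boxes and the Elavl4 window held 0. A match is only a match of letters: 21733 of 32817 promoter windows of this length (66.2%) held at least 1. Over the full promoter entries, the 3 other annotated starts of Elavl4 held 3, 3 and 1. The table had an entry for 6 of the 10 genes.

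In GRCm38 (GENCODE M21), all 10 are protein-coding genes. Elavl3 lies on chromosome 9 from 22015005 to 22052023, Elavl4 on chromosome 4 from 110203722 to 110351909, and Rbpms on chromosome 8 from 33782643 to 33929863, each on the minus strand. Elavl4 overlapped 0 other annotated genes. Elavl3 overlapped the same-strand model Gm49318, and Rbpms overlapped Gm26978 on its own strand and Gm26632 on the other. The sources used here do not state whether counting used strand, so reads in such overlaps are uncertain.

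The libraries differed in ways that bear on every comparison between genotypes. They held 9269 to 14730 cells each and 22463515 to 66594431 UMIs, with a median of 5661 and 6804 UMIs per cell in Bax null and 1634 to 2632 in the other 4 libraries. The mitochondrial share of UMIs was 3.80% and 3.90% in Bax null and 1.06% to 1.15% elsewhere. Atoh7 had 0 UMIs in all 4 Atoh7 null libraries and stood at 5.96 and 6.88 CPM in Bax null (counts scaled to a common library total). Bax stood at 17.1 and 15 CPM in Bax null, at 144 and 108 in Bax het Atoh7 null, at 11 in double mutant replicate 2, and at 47.7 in the one labelled double mutant replicate 1, which goes partly against its label. That library also shared 2596 cell barcodes with replicate 2 of its genotype, 17.6% of its own cells and 22% of the other's, against 126 to 223 for the other 14 pairs of libraries. Of the shared barcodes, 89.4% had the same cell type in both, and the UMI total in replicate 1 was a median 0.380 of that in replicate 2 (quartiles 0.372 and 0.390). Comparisons with the double mutant were therefore repeated without replicate 1 and with the shared cells left out of it. The paragraphs below say which reported calls held or were lost, and calls gained in these repeats are not all listed.

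The 10 genes fell into different patterns over the 5 cell types that the authors assigned. Elavl2, Elavl3, Elavl4, Celf4 and Rbfox2 stood higher in ganglion than in progenitor cells in all 6 libraries. Rbpms and Nova1 did likewise but by less, and Elavl1 and both Musashi genes were at similar or lower levels in ganglion cells. Levels are CPM after TMM scaling (a trimmed mean of log ratios), which sets the bulk of genes equal between libraries. Since cells were grouped by their expression, differences between cell types are described and were not tested. Counts per gene are not per length, so each gene is compared only with itself.

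**Figure D1:**
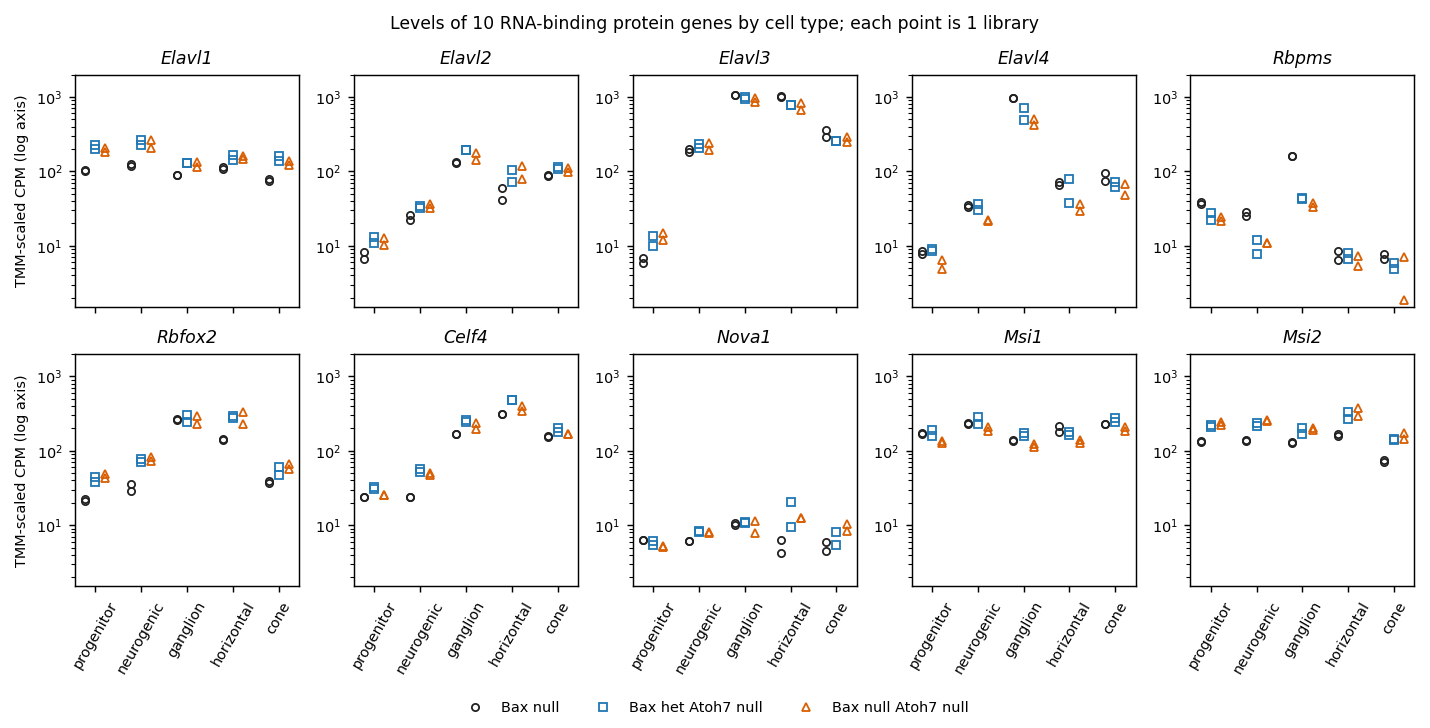
TMM-scaled CPM (log axis) of each of the 10 genes in 5 cell types, with 1 point per library and the marker shape giving the genotype. Elavl3 and Elavl4 are near 10 in progenitor cells and above 400 in ganglion cells, whereas Elavl1, Msi1 and Msi2 stay between 71.6 and 371 in all types.

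Elavl3 had the widest range. Its mean over 6 libraries was 10.4 in progenitor cells, 210 in neurogenic cells, 282 in cones, 850 in cells with the horizontal label and 983 in ganglion cells, and each step held in all 6 libraries. The ganglion level was 88.7-fold the progenitor level (log2 ratio 6.47 ± 0.56, SD, n = 6 libraries), and the neurogenic level was already 19.0-fold. With each cell thinned to 1000 UMIs, 55.3% to 67.7% of ganglion cells of a library had an Elavl3 UMI, against 0.41% to 1.68% of progenitor cells. Free RNA can give such a share in cells that do not make a transcript. Whether the low progenitor counts of Elavl3, and likewise of Elavl4 and Elavl2, come from the cells or from free RNA was not tested, so each fold is against a level that may be background.

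Elavl4 stood at a mean of 675 in ganglion cells, 69.4 in cones, 53.4 in the horizontal label, 29.9 in neurogenic cells and 7.50 in progenitor cells. Cones stood above the horizontal label in 5 of 6 libraries, and the other steps held in all 6. Its ganglion level was 76.3-fold the progenitor level (log2 ratio 6.25 ± 0.43, SD, n = 6). The neurogenic level was only 3.61-fold, and the horizontal label, where Elavl3 was nearly as high as in ganglion cells, had little Elavl4. Thinned shares were 30.9% to 45.9% in ganglion cells and 0.41% to 0.93% in progenitor cells.

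Elavl2, the remaining neuronal Hu gene, stood at 161 in ganglion cells, 101 in cones, 78.6 in the horizontal label, 30.6 in neurogenic cells and 10.3 in progenitor cells. It was the neuronal Hu gene with the smallest gap between ganglion cells and cones.

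Rbpms stood at 79.8 in ganglion cells on average, but this mean covers separate genotypes and is taken up below. Its next level was in progenitor cells (28.3), above neurogenic cells (15.9), and its lowest were in the horizontal label (7.01) and cones (5.70). Cones held only 2 to 11 Rbpms UMIs per library. Its ganglion to progenitor log2 ratio was 2.12 and 2.06 in the Bax null libraries and 0.60 to 0.89 in the 4 Atoh7 null libraries. The thinned share of ganglion cells with an Rbpms UMI was 8.97% and 8.61% in Bax null and 3.22% to 4.2% elsewhere, and that of progenitor cells was 2.27% to 3.01%. Unthinned, at the greater depth of Bax null, the ganglion shares were 36.0% and 39.9% against 6.59% to 9.90%.

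Celf4, an mRNA-stability factor of excitatory neurons, stood at 391 in the horizontal label, 212 in ganglion cells, 172 in cones, 42.6 in neurogenic cells and 27.0 in progenitor cells. Rbfox2, a splicing regulator, stood at 266 in ganglion cells and 235 in the horizontal label, with ganglion cells higher in 4 of 6 libraries. Its levels in neurogenic cells (61.4), cones (51.1) and progenitor cells (36.4) were all lower. Nova1, a splicing regulator of neurons, had few counts, with means of 5.76 to 10.9 in the 5 types, and no order among most of its neighbouring types held in all 6 libraries.

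Msi1 was highest in neurogenic cells (230) and cones (229), which changed order between libraries. It stood at 167 in the horizontal label, 159 in progenitor cells and 140 in ganglion cells. Msi2 stood at 266 in the horizontal label, 205 in neurogenic cells, 194 in progenitor cells, 169 in ganglion cells and 124 in cones. Elavl1 stood at 200 in neurogenic cells, 170 in progenitor cells, 139 in the horizontal label, 119 in cones and 114 in ganglion cells. The levels of these 3 genes in the highest type were thus near those in progenitor cells, unlike those of the neuronal Hu genes.

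The authors' 142 clusters give a finer view, as plain CPM summed over the 6 libraries. Over clusters with at least 50 cells, Elavl2, Elavl3 and Elavl4 varied together, with Pearson r of 0.86 for Elavl2 with Elavl3, 0.86 for Elavl3 with Elavl4 and 0.83 for Elavl2 with Elavl4. Rbfox2 followed them with r of 0.79 to 0.81. Elavl1 correlated with Msi2 (0.73) and Msi1 (0.67) and inversely with Elavl4 (-0.49), and Rbpms correlated inversely with Msi1 (-0.62). Within the 27 neurogenic clusters, Elavl3 ran from 11.2 to 596 CPM, and Elavl3 and Elavl4 had r of 0.94. Clusters share libraries and depth, so these are descriptions with no test.

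Among the 20 ganglion clusters, Rbpms ran from 4.1 to 313.5 CPM (median 60.9), Elavl4 from 94.0 to 1298 (median 756) and Elavl3 only from 594 to 1281 (median 876). Elavl4 and Rbpms had r of 0.83 over these 20, and Rbpms had r of -0.88 with Msi1 and -0.81 with Elavl1. The 5 clusters highest in Rbpms, at 202.5 to 313.5 CPM, consisted of 89.1% to 97.6% Bax null cells. They held 895 of 3343 ganglion cells of the Bax null libraries (26.8%), 18 of 1723 of Bax het Atoh7 null (1.04%) and 55 of 2291 of the double mutant (2.4%). The 5 clusters lowest in Elavl4 held 21.2% of Bax null, 52.6% of Bax het Atoh7 null and 45.5% of double mutant ganglion cells. In 4 of those 5, Elavl4 was at 94.0 to 193 CPM while Elavl3 was at 594 to 1072. Clusters mostly of 1 genotype may reflect its libraries rather than a type of cell, and the alternatives cannot be told apart.

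**Figure D2:**
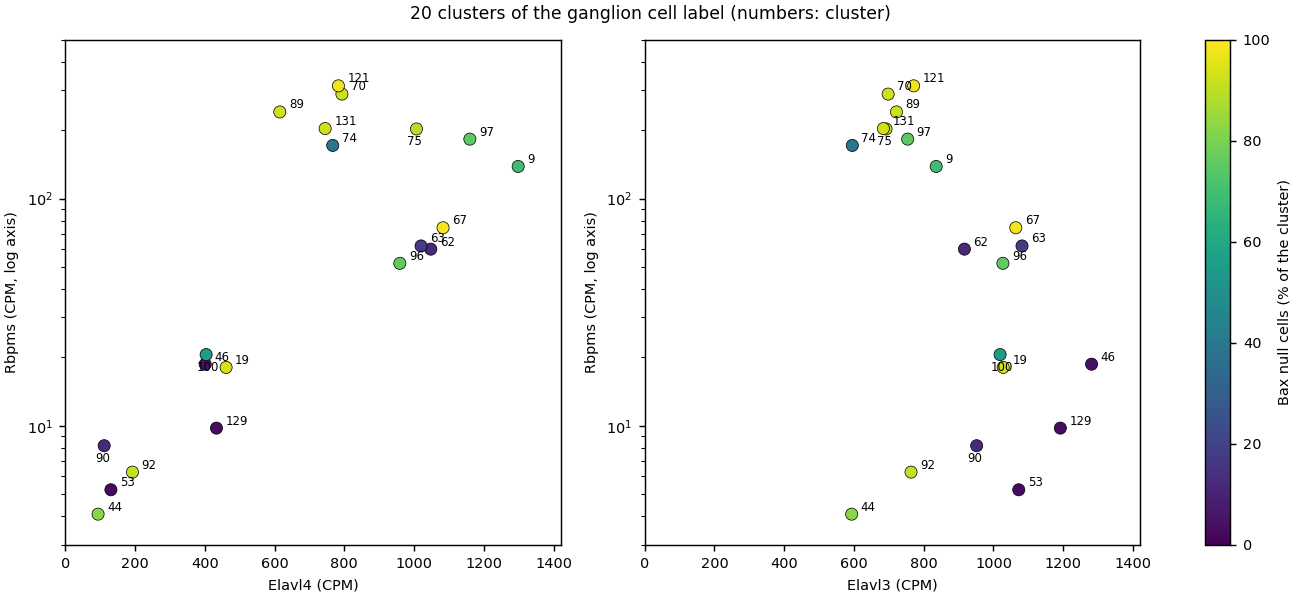
Elavl4 and Elavl3 (plain CPM) against Rbpms (plain CPM, log axis) in the 20 ganglion clusters, coloured by the percentage of cells from Bax null libraries. Clusters above 200 CPM of Rbpms consist of at least 89.1% Bax null cells and are high in Elavl4, whereas Elavl3 varies little by comparison.

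Cones and the horizontal label were also uneven. Over the 5 cone clusters, Elavl3 was at 534, 366, 243, 154 and 86.4 CPM, and Elavl2 in the same order was at 11.1, 25.8, 69.3, 254.6 and 208.8. Gngt2, a cone transducin subunit, was at 18.2, 267.6, 1128, 2802 and 2784 CPM in these clusters. Elavl3 was thus highest where Gngt2 was lowest, and Elavl2 the reverse. Of 6 clusters with the horizontal label, 3 had Celf4 at 797 to 935 CPM and Rbfox2 at 382 to 446, and the other 3 had Celf4 at 42.7 to 186 and Rbfox2 at 85.4 to 200.5. The first 3 were also higher in Tfap2b, an amacrine cell transcription factor, at 948 to 1708 CPM against 39.3 to 429. Lhx1, a defining horizontal cell factor, was at 3.2 to 148.6 CPM in the 6 clusters, and amacrine genes were prominent, so the label covers amacrine-like cells as well. Its means above therefore mix cells that differ in these genes, and its genotypes were not tested.

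**Figure D3:**
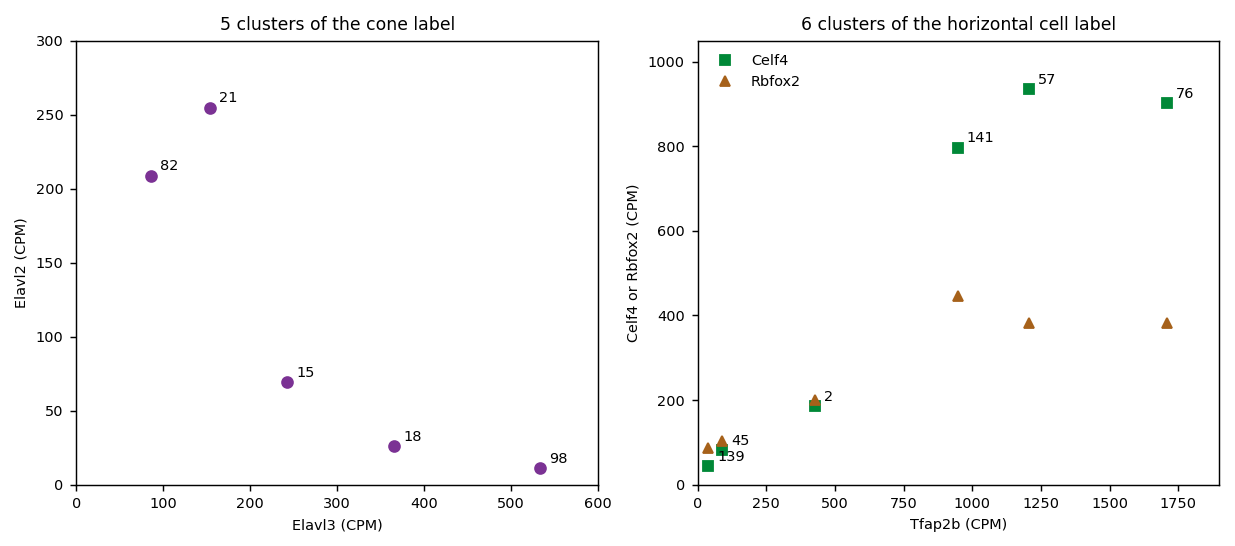
Elavl2 against Elavl3 (plain CPM) in the 5 cone clusters, and Celf4 and Rbfox2 against Tfap2b (plain CPM) in the 6 clusters with the horizontal label. Elavl2 is high in the cone clusters low in Elavl3, and the 3 clusters at 797 CPM or more of Celf4 also have the highest Tfap2b.

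The double mutant was set against Bax null to ask what differs without Atoh7 when Bax is absent. In ganglion cells, Rbpms and Elavl4 were lower without Atoh7, Elavl1, Msi2 and Celf4 were higher, and Elavl3, Elavl2, Rbfox2, Nova1 and Msi1 did not pass the test. These 3 higher and 2 lower calls came from edgeR's quasi-likelihood test at a Benjamini-Hochberg adjusted p under 0.05. Of 10586 genes tested in ganglion cells, 52.7% were called (26.2% higher, 26.5% lower), so the members' share was near the background. The members' median log2 fold change was -0.07, against 0.02 for all genes.

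Rbpms in ganglion cells was at 159 and 162 TMM-scaled CPM in Bax null and at 33.5 and 38.0 in the double mutant. Both Bax null values were over 4 times the others, with no overlap. The log2 fold change was -2.17 ± 0.11 (SE, adjusted p = 7.45e-09). It was -2.07 without double mutant replicate 1, -2.14 with the shared cells left out, and between -2.26 and -1.56 over 16 alternatives.

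Elavl4 was at 954 and 977 in Bax null and at 426 and 500 in the double mutant, again with no overlap. The log2 fold change was -1.06 ± 0.16 (adjusted p = 0.000113), and -0.95 without replicate 1 of the double mutant. It was -0.45 (adjusted p = 0.0198) when libraries were scaled by their totals, the smallest change over 16 alternatives. That scaling, used in place of TMM, moved the median log2 fold change of all ganglion genes up by 0.61 and gave 6440 higher and 981 lower calls in place of 2776 and 2804. The share of calls that were higher went from 49.7%, 49.8% and 44.5% to 89.5%, 90.6% and 89.5% in neurogenic, progenitor and cone cells, with shifts of 0.59, 0.63 and 0.55.

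Elavl3 was at 1046 and 1074 in Bax null and at 866 and 976 in the double mutant, a log2 fold change of -0.20 ± 0.11 (adjusted p = 0.156). It became 0.41 on library totals (adjusted p = 0.00666), so its direction depends on the scaling. Elavl2 was at 133 and 129 against 141 and 174, a log2 fold change of 0.26 ± 0.10 (adjusted p = 0.0506), and passed the test in 5 of 16 alternatives. Rbfox2 was at 265 and 262 against 230 and 295, so the groups overlapped.

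Elavl1 was at 88.0 and 89.1 in Bax null and at 113 and 134 in the double mutant (log2 fold change 0.48 ± 0.10, adjusted p = 0.00142). Msi2 was at 129 and 130 against 189 and 201 (0.59 ± 0.10, adjusted p = 0.000313). Celf4 was at 166 and 167 against 199 and 237 (0.39 ± 0.10, adjusted p = 0.00568, and 0.0514 without Bax null replicate 1). For none of these 3 genes did the genotypes overlap. On library totals the 3 values were larger, at 1.09 for Elavl1, 1.2 for Msi2 and 0.998 for Celf4. Without double mutant replicate 1 they were 0.60, 0.64 and 0.51, and all 3 calls held there and with the shared cells left out. Msi1 stood at 138 and 135 against 125 and 112 (adjusted p = 0.0819).

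In neurogenic cells, 5 members were higher without Atoh7 and 2 were lower, against 47.3% of 11670 genes called (23.5% higher, 23.8% lower). Rbfox2 was at 35.6 and 29.0 in Bax null and at 72.8 and 83.0 in the double mutant (log2 fold change 1.27 ± 0.12). Celf4 was at 23.9 and 24.3 against 46.9 and 50.2 (1.01 ± 0.11). Elavl1 (0.93 ± 0.13), Msi2 (0.88 ± 0.09) and Elavl2 (0.51 ± 0.12) were the other higher members. Rbpms fell from 25.2 and 28.6 to 10.8 and 10.9 (-1.31 ± 0.17) and Elavl4 from 35.5 and 32.8 to 21.2 and 22.4 (-0.65 ± 0.13). The Elavl4 call was lost on library totals (-0.06, adjusted p = 0.72) and the Elavl2 call without Bax null replicate 2 (0.38, adjusted p = 0.082). All 7 calls held without double mutant replicate 1 and with the shared cells left out. Markers moved in these cells too, in CPM on library totals, without TMM. That scale moved the median log2 fold change of all neurogenic genes up by 0.59, and the marker changes include that shift. Sums of neurogenic markers were 2962 and 3362 CPM in Bax null and 5871 and 6903 in the double mutant, those of amacrine markers 251 and 298 against 588 and 718, those of horizontal markers 148 and 177 against 341 and 359.6, and those of cone markers 200.4 and 238 against 352 and 419.6. Most of the amacrine sum was Neurod1, a gene highest in cones, at 237 and 281 against 575 and 705. Ptf1a was lower in the double mutant, at 9.65 and 10.2 against 6.62 and 7.70. The part of these markers in the changes of the members was not tested.

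In progenitor cells, where 53.9% of 13396 genes were called (26.8% higher, 27.1% lower), 5 members were higher and 3 lower. Elavl3 passed the test at 6.94 and 5.92 against 14.8 and 11.8 (log2 fold change 1.06 ± 0.17). These levels are so far below those in ganglion cells that free RNA could give them, and the same holds for Elavl2 and Elavl4. Rbfox2 rose from 22.7 and 21.1 to 42.8 and 48.9 (1.06 ± 0.10). Elavl1 (0.92 ± 0.09), Msi2 (0.81 ± 0.09) and Elavl2 (0.63 ± 0.16) also rose, the last not without Bax null replicate 2 (adjusted p = 0.0714) or without double mutant replicate 1 (adjusted p = 0.057). Rbpms fell by 0.70 ± 0.11 on the log2 scale, Elavl4 by 0.49 ± 0.16 and Msi1 by 0.36 ± 0.10. On library totals Rbpms was at -0.07 (adjusted p = 0.641), while Elavl4 and Msi1 turned to 0.13 (adjusted p = 0.438) and 0.28 (adjusted p = 0.0297). Without either Bax null library the Msi1 call was lost (adjusted p = 0.061 and 0.0788), as was that of Elavl4 without Bax null replicate 1 (0.133) or double mutant replicate 2 (0.0995). The other 7 calls held without double mutant replicate 1, and all 8 with the shared cells left out. Markers of other cell types were also higher in double mutant progenitor cells in CPM on library totals, without TMM. That scale moved the median log2 fold change of all progenitor genes up by 0.63, and these rises include that shift. Sums were 365 and 381 CPM in Bax null against 662.0 and 662.1 for neurogenic markers, 10.5 and 13.1 against 28.4 and 33.5 for amacrine, 16.3 and 18.4 against 44.7 and 55.1 for horizontal, and 16.9 and 20.4 against 32.9 and 40.5 for cone markers. Most of the amacrine sum was again Neurod1, at 9.09 and 12.0 against 25.5 and 29.4. The part of these markers in the change of Elavl3 and the other members was not tested.

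In cones, 9 members were tested and 3 were higher and 1 lower, against 28.1% of 9421 genes (12.5% higher, 15.6% lower). Msi2 was at 71.6 and 75 in Bax null and at 142 and 173 in the double mutant (log2 fold change 1.09 ± 0.16). Elavl1 was at 73.5 and 78.4 against 139 and 123 (0.79 ± 0.16). Rbfox2 (0.67 ± 0.21, adjusted p = 0.0231) and Elavl4 (-0.59 ± 0.19, adjusted p = 0.0276) were the other calls. Both were lost in DESeq2 (adjusted p = 0.184 and 0.185). Rbfox2 was also lost without Bax null replicate 1 (0.14), Bax null replicate 2 (0.0983) or double mutant replicate 2 (0.0866). Elavl4 was lost without Bax null replicate 1 (0.327) or double mutant replicate 1 (0.292), and was at -0.04 (adjusted p = 0.904) with the 5% of cells with the most UMIs left out. The Elavl1, Msi2 and Rbfox2 calls held without double mutant replicate 1, and all 4 with the shared cells left out. Rbpms was not tested there for want of counts.

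Elavl1, Msi2 and Rbfox2 moved in progenitor, neurogenic and cone cells alike, so each gene's change was also tested against its change in progenitor cells of the same libraries. This interaction term removes a shift that all cell types of a library share. In ganglion cells it called 7 members, 1 higher and 6 lower, against 17.1% of 13082 genes (9.24% higher, 7.83% lower). The members' median was -0.39, and that of all genes was 0.04. Of all these calls, 54.1% were higher with TMM and 42.2% on library totals, and the corresponding shares were 57.9% and 30.8% in neurogenic cells and 61.6% and 22.5% in cones.

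Rbpms fell more in ganglion than in progenitor cells, by 1.43 ± 0.12 on the log2 scale (adjusted p = 7.97e-15). The Rbfox2 term was -1.04 ± 0.07 (adjusted p = 2.48e-17) and the Elavl3 term -1.26 ± 0.14 (adjusted p = 6.15e-11). Neither gene passed the test in ganglion cells alone, so neither term shows a fall there, and a small fall is not excluded. Both genes had a higher progenitor level in the double mutant. For Elavl3 that level may be background, as may the denominator of its neurogenic and cone terms below, and none of these Elavl3 terms is read as a change of expression in those cells. Per library, the Elavl3 ganglion to progenitor log2 ratio was 7.02 and 7.23 in Bax null and 5.81 and 6.24 in the double mutant, with no overlap. That of Rbfox2 was 3.50 and 3.56 against 2.43 and 2.54. Rbpms, Elavl3, Rbfox2 and Elavl1 (-0.42 ± 0.09, adjusted p = 0.000753) passed in all 13 alternatives, library totals included. Elavl1 was itself called higher in ganglion cells, so its term shows a smaller rise there than in progenitor cells.

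The other 3 interaction calls rested on single libraries. Those of Elavl4 and Elavl2 also rest on low progenitor levels that may be background. Elavl4 was at -0.56 ± 0.15 (adjusted p = 0.00358) but at -0.18 (adjusted p = 0.685) without the library labelled double mutant replicate 1. Elavl2 was at -0.36 ± 0.13 (adjusted p = 0.0409), at -0.04 without that library (adjusted p = 0.934), at -0.25 without Bax null replicate 2 (adjusted p = 0.386), at an adjusted p of 0.0541 without Bax het Atoh7 null replicate 1 and at an adjusted p of 0.058 with the shared cells left out. Celf4 was at 0.31 ± 0.08 (adjusted p = 0.00543), and at an adjusted p of 0.079, 0.111 and 0.29 without Bax null replicate 1, Bax null replicate 2 or double mutant replicate 2. In neurogenic cells the term called 4 members against 6.77% of genes (3.91% higher, 2.85% lower): Celf4 (0.92 ± 0.11), Nova1 (0.70 ± 0.23, adjusted p = 0.0489), Elavl3 (-0.87 ± 0.14) and Rbpms (-0.58 ± 0.15). Elavl3 was at -0.51 without double mutant replicate 1. The Nova1 call was lost when any 1 library was left out, and the Rbpms call without Bax null replicate 2 (adjusted p = 0.156) or double mutant replicate 2 (adjusted p = 0.129). In cones it called 1 member, Elavl3 (-1.28 ± 0.16), against 5.12% (3.16% higher, 1.96% lower).

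**Figure D4:**
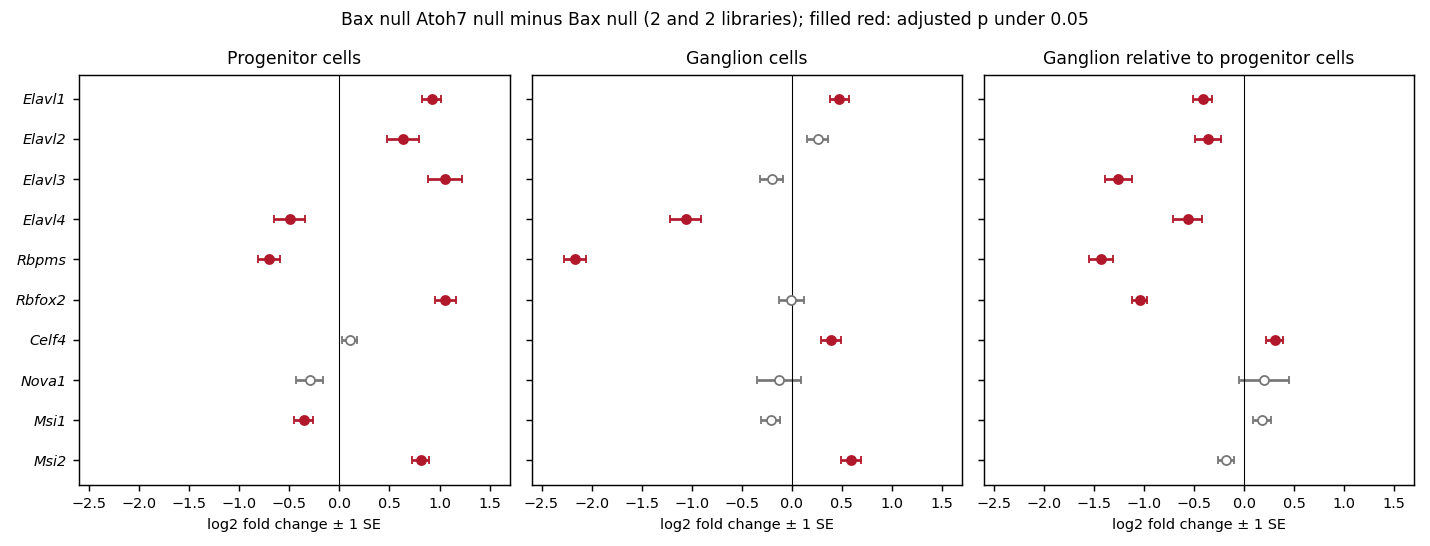
Log2 fold change (± 1 SE) of each gene in double mutant libraries less Bax null (2 each), in progenitor cells, in ganglion cells, and in ganglion relative to progenitor cells; filled red marks an adjusted p under 0.05. Rbpms is lowest in ganglion cells at -2.17, and Elavl3 and Rbfox2 are near 0 there but above 1 in progenitor cells.

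The cells carrying the ganglion label also differed between the genotypes. Summed over 8 ganglion markers, their level on library totals was 9979 and 10468 CPM in Bax null, 5294 and 6307 in the double mutant, and 4761 and 5533 in Bax het Atoh7 null. Sums of 5 amacrine markers were 65.5 and 88.1, 502 and 598, and 657 and 759, and sums of 6 progenitor markers were 354.5 and 513, 1064 and 1329, and 1104 and 1157 in the same order. Most of the amacrine sum was Neurod1, a gene highest in cones, at 53.1 and 75.1, 402.8 and 464.5, and 535 and 635. Tfap2b also rose, while Ptf1a, Tfap2a and Prdm13 were each at most 4.18 CPM. Library totals moved the median log2 fold change of all ganglion genes against Bax null up by 0.61 in the double mutant and 0.49 in Bax het Atoh7 null. Microglial, astrocyte, pigment epithelium, lens and endothelial sums were at most 6.8 CPM. Haemoglobin and Alas2 transcripts summed to 427 and 490 CPM in Bax null ganglion cells and to 4.4 to 197 elsewhere. The part of these shifts in the changes of Rbpms, Elavl4 and the other members was not tested.

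Levels were also compared within single clusters. In 6 ganglion clusters with at least 15 cells from every library, the 4 Atoh7 null libraries were compared with the 2 Bax null libraries in TMM-scaled CPM. Rbpms lay entirely below in 1 cluster, entirely above in 1 and overlapped in 4. In 3 of the 4 overlaps every library had at most 10 Rbpms UMIs, too few to show or exclude a fall. In cluster 62 it was at 30.2 to 54.0 against 126 and 151, and in cluster 63 at 45.6 to 106 against 9.70 and 34.0. Elavl4 lay below in 3 and overlapped in 3, for instance 702 to 1229 against 1537 and 1576 in cluster 62. On plain CPM, Elavl4 overlapped in all 6. Elavl3 lay below in 4 and overlapped in 2, but on plain CPM it lay above in 4 and overlapped in 2, so its direction depends on the scaling here as well. Rbfox2 lay above in 4 clusters, Msi2 in 2 and Celf4 in 4, and on plain CPM in 6, 6 and 5. None of these 3 lay below in any cluster on either scale.

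The double mutant and Bax het Atoh7 null differ in Bax dosage with Atoh7 absent from both. Few members differed. On library totals the median of all ganglion genes moved up by 0.12 and the share of calls that were higher from 10.5% to 33.5%. In ganglion cells, Msi1 stood at 158 and 171 in Bax het Atoh7 null, beside 125 and 112 in the double mutant, with no overlap (log2 fold change -0.48 ± 0.10, adjusted p = 0.025). It was the only member called there, against 2.34% of genes (0.246% higher, 2.1% lower). At an unadjusted p under 0.05 were 3 of 10 members, against 1367 of 10586 genes. In neurogenic cells the only call was Elavl4, at 30.7 and 36.9 against 21.2 and 22.4 (-0.63 ± 0.13, adjusted p = 0.0333), against 1.77% of genes (0.00857% higher, 1.76% lower). In both classes DESeq2 called 0 members.

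Neither call was stable. Over 16 alternatives the Msi1 adjusted p ran from 0.00467 to 0.273 with 6 calls, and that of Elavl4 from 0.00036 to 0.398 with 7 calls. The Msi1 call was lost when any library but double mutant replicate 1 was left out, and the Elavl4 call for any but double mutant replicate 2. Without the library labelled double mutant replicate 1, Elavl4 was at -0.61 (adjusted p = 0.065). Msi1 was lower on average in all 4 classes, by 0.48 in ganglion, 0.39 in neurogenic, 0.38 in progenitor and 0.42 in cone cells on the log2 scale, and passed only in the first. In progenitor cells edgeR called 0 of 10 members, against 2.01% of genes (0.0597% higher, 1.95% lower), and DESeq2 called 1. At an unadjusted p under 0.05 were 3 members there, against 1890 of 13396 genes. In cones edgeR called 0 of 9, against 1.46% (0.0318% higher, 1.43% lower), and DESeq2 called 0. At an unadjusted p under 0.05 was 1 member, against 871 of 9421 genes.

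Rbpms in ganglion cells of Bax het Atoh7 null stood at 42.7 and 44.1, beside 33.5 and 38.0 in the double mutant (-0.28 ± 0.13, adjusted p = 0.403). Elavl4 there was at 485 and 709 against 426 and 500, so the groups overlapped. Elavl3 was at 942 and 997 against 866 and 976. No change against progenitor cells passed the edgeR interaction test in ganglion, neurogenic or cone cells, against 0.122%, 0.00764% and 0.00764% of genes. At an unadjusted p under 0.05 were 2, 0 and 0 members, against 830, 566 and 634 of 13082 genes.

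**Figure D5:**
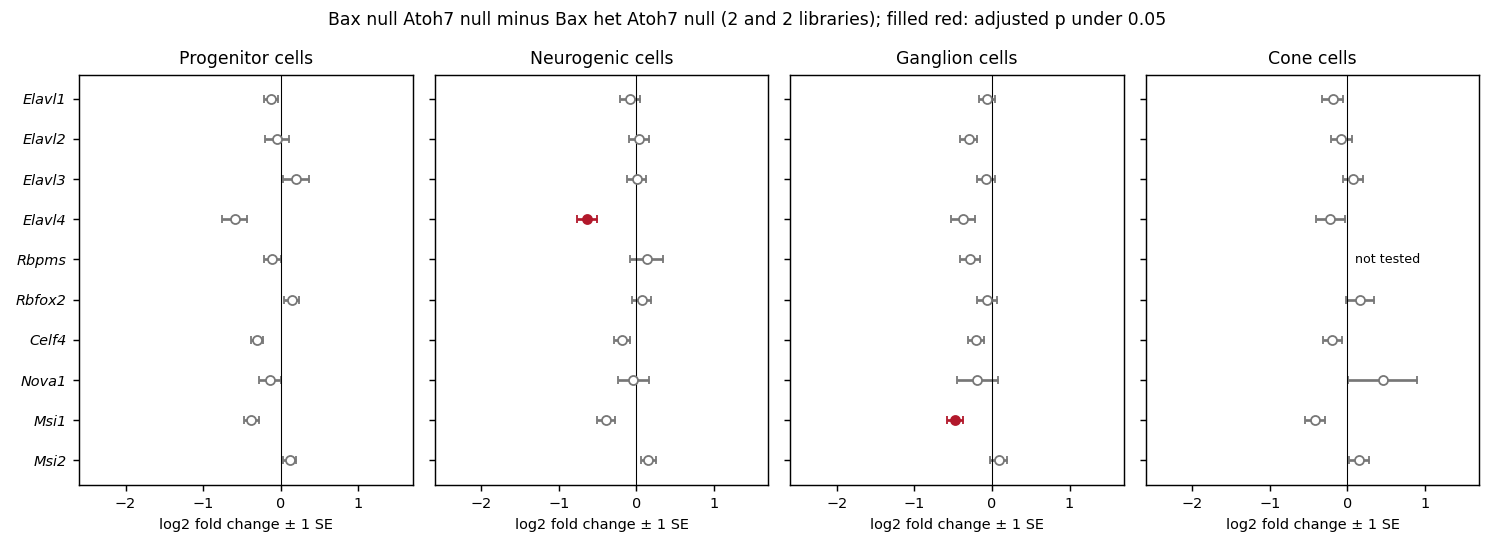
Log2 fold change (± 1 SE) of each gene in double mutant libraries less Bax het Atoh7 null (2 each) in 4 cell classes; filled red marks an adjusted p under 0.05, and Rbpms was not tested in cones. Msi1 is below 0 in all 4 classes, and only Msi1 in ganglion cells and Elavl4 in neurogenic cells pass.

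Bax het Atoh7 null against Bax null differs in both genes and shares the Bax null libraries with the first comparison, so its values are set beside that one and are not a second line of evidence. On library totals 84.8%, 89.1%, 90.1% and 89.1% of its calls were higher in ganglion, neurogenic, progenitor and cone cells, in place of 49.97%, 49.6%, 50.1% and 46.0% with TMM. In ganglion cells it called 7 members, 5 higher and 2 lower, against 50% of genes (25% in each direction). Rbpms was at -1.88 ± 0.10 (adjusted p = 2.95e-08), beside -2.17 in the first comparison. Elavl4 was at -0.69 ± 0.16 (adjusted p = 0.00275), beside -1.06, and was not called on library totals (-0.20, adjusted p = 0.274). Celf4 (0.59), Elavl2 (0.56), Elavl1 (0.54), Msi2 (0.51) and Msi1 (0.27 ± 0.09, adjusted p = 0.0277) were higher. The Msi1 call was lost when either Bax null library was left out (adjusted p = 0.113 and 0.156) or Bax het Atoh7 null replicate 2 (0.252).

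Neurogenic cells had 6 calls against 47.1% of genes (23.4% higher, 23.8% lower), namely Rbfox2 (1.2), Celf4 (1.19), Elavl1 (1.01), Msi2 (0.73), Elavl2 (0.47) and Rbpms (-1.44). Progenitor cells had 7 against 53.1% (26.6% higher, 26.5% lower), namely Elavl1 (1.05), Rbfox2 (0.92), Elavl3 (0.86), Msi2 (0.70), Elavl2 (0.68), Celf4 (0.40) and Rbpms (-0.59, and -0.05 with an adjusted p of 0.713 on library totals). Elavl2 lost both calls without Bax null replicate 2 (adjusted p = 0.113 in neurogenic and 0.0528 in progenitor cells). It also lost the neurogenic call without Bax het Atoh7 null replicate 2 (0.0675) and the progenitor call without replicate 1 of that group (0.0548). Cones had 2 against 27.5% (12.7% higher, 14.8% lower), Elavl1 (0.98) and Msi2 (0.94). Relative to progenitor cells, ganglion cells had 6 calls against 16.5% (8.25% higher, 8.29% lower): Rbpms (-1.31), Elavl3 (-0.98), Rbfox2 (-0.86), Elavl4 (-0.80), Elavl1 (-0.51) and Msi1 (0.25). On library totals 37.5% of the calls of this term over all genes were higher, in place of 49.9%.

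In both comparisons with Bax null, depth, mitochondrial share and TMM scaling separated the same 2 libraries from the other 4. Genotype and library set therefore cannot be told apart in any change against Bax null, whether or not all cell types shared it.

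Other RNA-binding proteins moved in both directions. Of 43 listed, 38 were tested in ganglion cells of the double mutant against Bax null, with 10 higher and 11 lower and a median log2 fold change of -0.05. This is near the 26.2% and 26.5% of all genes called higher and lower there. Srrm4, a splicing activator of neuronal microexons, was at 158 and 156 in Bax null and 434 and 455 in the double mutant (1.5 ± 0.09). Qk, a splicing and stability factor known from glia, was at 34.1 and 32.1 against 83.9 and 89.95 (1.39 ± 0.10), and Rbfox3, the NeuN antigen, was at 21.9 and 21.8 against 49.3 and 48.6 (1.16 ± 0.12). Rbpms2, the paralog of Rbpms, was at 191 and 190 against 67.3 and 70.2 (-1.47 ± 0.10), and Celf5 was at 28.4 and 27.6 against 11.4 and 8.78 (-1.46 ± 0.17). Both Rbpms genes were thus lower without Atoh7 in this class. Neurogenic cells had 11 higher and 9 lower of 39 tested, against 23.5% and 23.8% of all genes. Progenitor cells had 13 and 9 of 41, against 26.8% and 27.1%, and cones 10 and 2 of 36, against 12.5% and 15.6%. Srrm4 rose by 1.44 in neurogenic and 1.5 in progenitor cells as well. Relative to progenitors, 5 of 43 were higher and 8 lower in ganglion cells, against 9.24% and 7.83% of all genes. They included Qk (1.49), Srrm3 (-2.68) and Celf5 (-2.02). In progenitor cells Srrm3 stood at only 0.30 to 1.98 TMM-scaled CPM and Celf5 at 1.56 to 2.43. Such levels may be background, so these 2 terms are not read as falls in ganglion cells. The lower Celf5 level there rests on the direct ganglion test above (-1.46). Without double mutant replicate 1 the ganglion counts were 11 higher and 12 lower of 39, with the shared cells left out 10 and 10 of 38, and the genes named here kept their calls in both. With Atoh7 absent from both groups, Bax dosage gave 0 edgeR and 0 DESeq2 calls in each of the 4 classes. In ganglion, neurogenic, progenitor and cone cells, edgeR called 2.34%, 1.77%, 2.01% and 1.46% of all genes. At an unadjusted p under 0.05 were 3 of 38, 2 of 39, 4 of 41 and 3 of 36 listed genes in these classes. Of all genes, 1367 of 10586, 1334 of 11670, 1890 of 13396 and 871 of 9421 had such a p. Without double mutant replicate 1, edgeR called 1 in ganglion cells.

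A list of 13 mRNAs known to be bound by Hu or Musashi proteins was described the same way. In ganglion cells of the first comparison, 5 of 12 tested were higher and 2 lower, against 26.2% and 26.5% of all genes. Mapt, the microtubule protein tau, was at 477 and 519 in Bax null and 185 and 196 in the double mutant (-1.39 ± 0.10). Gap43, a growth cone protein and one of the ganglion markers, was at 3166 and 3558 against 1228 and 1639 (-1.23 ± 0.17). Cdkn1a, the cell cycle inhibitor p21, was at 9.18 and 8.15 against 30.7 and 34.0 (1.90 ± 0.17). It was also the only listed mRNA called for Bax dosage in ganglion cells, at 15.3 and 11.8 in Bax het Atoh7 null (1.28 ± 0.19, adjusted p = 0.00377). Actb (0.64) and Hif1a (0.35) were among the higher mRNAs. The 5 mRNAs named here kept their calls without double mutant replicate 1 and with the shared cells left out. The list's median was 0.11, beside 0.02 for all genes, and whether these mRNAs follow their binding proteins was not tested.

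The genes most like each member were found by Pearson r over 30 sums (6 libraries, 5 cell types) of log2 CPM centred within library, among 7204 genes. Elavl3 was closest to Tubb3 (0.997), Cyth2 (0.99) and Apba2 (0.99). Elavl4 was closest to Gap43 (0.98), Pou4f1 (0.98) and Igfbpl1 (0.97), the first 2 of which are ganglion markers. Elavl2 was closest to Fam57b (0.99), Rbfox2 to Ube2d1 (0.98) and Celf4 to Tshz2 (0.995). Msi1 was closest to H1f0 (0.96), Msi2 to Asap2 (0.95) and Elavl1 to Hes5 (0.93). Rbpms had a less close neighbour, Akap12 (0.91), and Nova1 the least close, St8sia2 (0.79).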

How the data were processed

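Retinal cells of mouse embryos were profiled with 10x Genomics 3' v2 chemistry in 6 libraries. The authors deposited 1 matrix of raw UMI counts and a cell table with clusters and cell types; Cell Ranger 1.2.1 and mm10 are named, per the submitters' processing notes. The roles of these tools and the filters on cells are not given in the sources used here. The deposited table named 2 further libraries, with 26078 cells, that were not used here. The deposited totals per cell (counts) equalled the matrix sums in all 67050 cells used.

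Counts were summed per library and cell type, giving 890484 to 38954120 UMIs per sum in the 4 tested classes. Genes passing filterByExpr were scaled by TMM and tested with edgeR 4.0.16 (glmQLFit, glmQLFTest; R 4.3.3), all 6 libraries in 1 fit. P-values were two-sided, Benjamini-Hochberg adjusted over all genes tested, and called under 0.05. The change relative to progenitor cells was the interaction of group and cell type over 24 sums with library as a block. An exact permutation of 2 against 2 libraries cannot go below p = 0.333, so none was run. DESeq2 1.42.0, other scalings and filters, thinned sums, cells left out and each library left out in turn were alternatives; library totals and the removal of shared barcodes were added after seeing the data. The scripts were tested on simulated data. Doublets were not called; leaving out the 5% of cells with the most UMIs (3362) is an alternative. Wilson 95% intervals of shares cover counting error only.

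The text names all 10 members, and from each further list up to 3 called genes per direction with at least 20 CPM in the higher group and groups that do not overlap. Members and lists were chosen with earlier results of these data known.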

Additional observations from a re-analysis of the deposited data

Results flagged for a closer look

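For 23 combinations of gene, cell type and comparison, a gene's change differed between a cell type and the progenitor cells of the same libraries in edgeR's interaction test (2 libraries per genotype). The values are differences of log2 fold changes. In ganglion cells of Bax null Atoh7 null against Bax null, these were Rbpms (-1.43), Elavl3 (-1.26), Rbfox2 (-1.04), Elavl4 (-0.56), Elavl1 (-0.42), Elavl2 (-0.36) and Celf4 (0.31). In ganglion cells of Bax het Atoh7 null against Bax null, which shares the Bax null libraries, they were Rbpms (-1.31), Elavl3 (-0.98), Rbfox2 (-0.86), Elavl4 (-0.80), Elavl1 (-0.51) and Msi1 (0.25). In neurogenic cells the first comparison gave Celf4 (0.92), Elavl3 (-0.87), Nova1 (0.70) and Rbpms (-0.58). The comparison of Bax het Atoh7 null with Bax null gave Rbpms (-0.85), Celf4 (0.80), Elavl3 (-0.66) and Rbfox2 (0.30) there. The Elavl3, Elavl4 and Elavl2 terms rest on low progenitor levels that may be background. In cones the only such gene was Elavl3, at -1.28 in the first comparison and -1.14 in the other. Of 13082 genes, the first comparison called 17.1% in ganglion cells, 6.77% in neurogenic cells and 5.12% in cones. The other called 16.5%, 7.56% (3.64% higher, 3.92% lower) and 5.67% (3.33% higher, 2.34% lower) in the same order.

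The Msi1 term (adjusted p = 0.0463) and the neurogenic Rbfox2 term (adjusted p = 0.0453) of Bax het Atoh7 null against Bax null were lost without either Bax null library or either Bax het Atoh7 null library. The neurogenic Elavl3 term of that comparison was lost, at -0.33 (adjusted p = 0.349), when Bax het Atoh7 null replicate 1 was left out.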

How the results depend on the processing

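Of 192 recomputed counts of called members, 161 stayed within 1.5 times the reported count, as did 114 of 117 counts of interaction calls. Of 800 recomputed changes of single members, 737 kept direction and side of the threshold, 54 lost and 6 gained a call and 3 reversed. All 3 reversals came from scaling on library totals in Bax null Atoh7 null against Bax null: Elavl3 in ganglion cells (0.41), and Elavl4 (0.13) and Msi1 (0.28) in progenitor cells. Library totals also raised the called members in ganglion cells from 5 to 9, and for Bax het Atoh7 null against Bax null from 6 to 10 in neurogenic cells and from 2 to 6 in cones. In the latter, only the 4 libraries compared gave 4, and leaving out single libraries 2 to 4. For Bax null Atoh7 null against Bax null in cones, DESeq2 and thinned sums gave 2 in place of 4, and leaving out libraries 2 to 4. For Bax dosage in ganglion cells, the 1 call became 0 under DESeq2, no filter, thinned sums, library totals and only the 4 libraries, and 0 to 1 without single libraries. The 1 neurogenic call became 0 under DESeq2, library totals, only the 4 libraries and the deepest 5% of cells left out, 2 with no filter, and 0 to 2 without single libraries. In progenitor cells 0 became 1 in DESeq2 and 0 to 2 without single libraries, and in cones 0 to 1. Interaction calls in neurogenic cells were 2 to 4 without single libraries in both comparisons with Bax null. The log2 ratio of Rbpms between the horizontal label and progenitor cells went from -1.86 to -2.18 with the deepest 5% of cells left out. The cause of these shifts was not tested.

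Labels number the libraries of each genotype, but deviations of same-numbered libraries correlated at only -0.10 to 0.29, so the numbers did not pair them. With the replicate block, called members in ganglion cells were 6, 1 and 7 in the 3 comparisons (5, 1 and 7 without), Elavl2 in Bax null Atoh7 null against Bax null passing at an adjusted p of 0.0499, and the neurogenic Nova1 interaction was lost (adjusted p = 0.0531). With 2 libraries per group and 2 to 13 UMIs per library for Rbpms and Nova1 in cones, small changes of these genes could not be detected.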
